A study of Rattus norvegicus with 4 samples.

Results

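Injured gracilis muscle after 3 days of reperfusion was compared with injured gracilis muscle after 1 day. The gracilis is a strap-like adductor of the thigh. The muscles came from male Sprague-Dawley rats, and each injured muscle had 4 h of ischemia followed by reperfusion; the labels give no age. Each day was a single 2-colour Agilent rat array that carried the injured muscle (Cy5, red) against a sham-operated control muscle (Cy3, green), so that 2 of the 4 arrays of the series enter the comparison. The quantity followed is the difference between days of the log2 ratio of injured to sham, read beside the direct difference of the 2 injured channels. A gene entered if, on each of these arrays, a probe of it stood well above background in the red or the green channel, which held for 22277 of the 35623 gene names on the array. Each day had 1 sample and dyes were not swapped; values therefore come without replicates or tests, and genes are counted by size alone. An array and its day cannot be told apart, and the labels do not say whether both arrays carried the same sham RNA.

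When blood returns to a muscle that has been without it, fibres die, and neutrophils and then monocytes enter the tissue. Phagocytes clear the debris while satellite cells, the stem cells of muscle, divide, switch on the myogenic transcription factors and fuse into new fibres that use embryonic forms of the contractile proteins. Fibroblasts and their precursors lay down matrix around them. In a whole muscle, fewer cells of a type and less RNA per cell cannot be told apart.

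Between days 1 and 3 a share of collagen, complement C1, cell division and early myogenic genes was higher in the injured muscle, and a share of the genes of neutrophils, monocytes, chemokines, the interferon response and adult fast fibres was lower. By the difference of ratios 689 genes were at least 2-fold higher on day 3 (3.09% of genes) and 368 at least 2-fold lower (1.65%). By both measures, the ratio and the injured channel alone, 620 genes were higher (2.78%) and 329 lower (1.48%), of which 387 and 244 had a gene symbol. These are the genes called higher or lower below, and fold values are those of the ratio unless the injured channel is named. At 4-fold by both measures the counts were 107 and 54. No gene was 2-fold different in opposite directions by the 2 measures. The 2 are not independent, because the ratio difference is the injured difference minus the sham difference. Opposite directions would need sham levels at least 4-fold apart, so their absence says little about agreement.

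**Figure D1:**
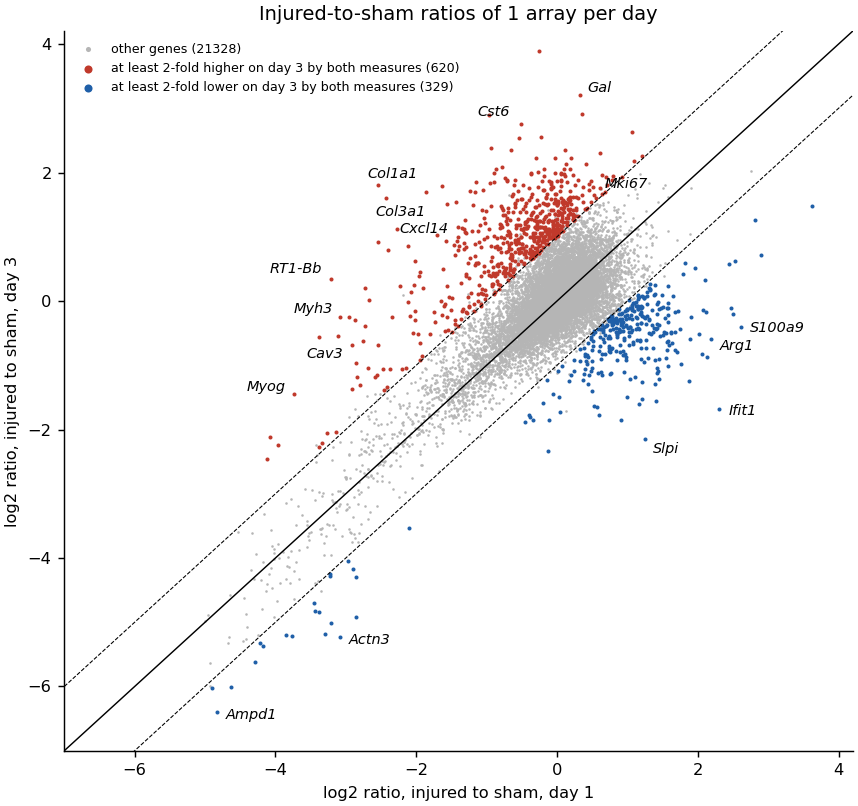
Each point is a gene, at its log2 ratio of injured to sham muscle on day 1 (horizontal) and on day 3 (vertical); the solid line marks equal ratios and the dashed lines a 2-fold difference. The 620 genes called higher (red) lie above the band and the 329 called lower (blue) below it; muscle genes such as Actn3 and Ampd1 were far below sham on both days.

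The balance of the 2 directions depended on the scaling. Of the genes past 2-fold 65.2% were higher on day 3, but 48.6% with each array only centred on its median and 54.1% when the injured channels were compared after quantile normalization without loess. The median over all genes was 0.01 for the difference of ratios, 0.02 for the injured channels and 0.02 for the sham channels. The sham channels serve as a rough yardstick of how far apart 2 arrays lie: in the sham channel 16 genes passed 2-fold upward on day 3 and 132 downward, against 791 and 610 in the injured channel. If both arrays carried the same sham RNA, this yardstick holds no spread between animals. Sham channels were also well above background at fewer probes (47.3% and 41.1%) than injured channels (64.4% and 68.7%). The offset used in background correction draws differences of dim genes toward 0. Across genes, which are not independent replicates, the sham channels correlated at r = 0.992 and the injured channels at r = 0.958. Among the 620 genes called higher the sham levels of the days differed by under 0.5 on the log2 scale for 608, and among the 329 called lower for 308. Calling by both measures passes over genes whose ratio moved through the sham channel, so these counts are partly set by the selection. Of 40 probes printed 10 times on each array, the difference of ratios had a median SD of 0.084 over spots, which is spot noise and not the spread between animals. The scanner software's own error estimate for its log2 ratios, combined over the 2 days, was larger. It was 0.30 for Irf7, 0.58 for Ckm and 0.84 for Ampd1, so muscle genes just past 2-fold are the less certain.

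**Figure D2:**
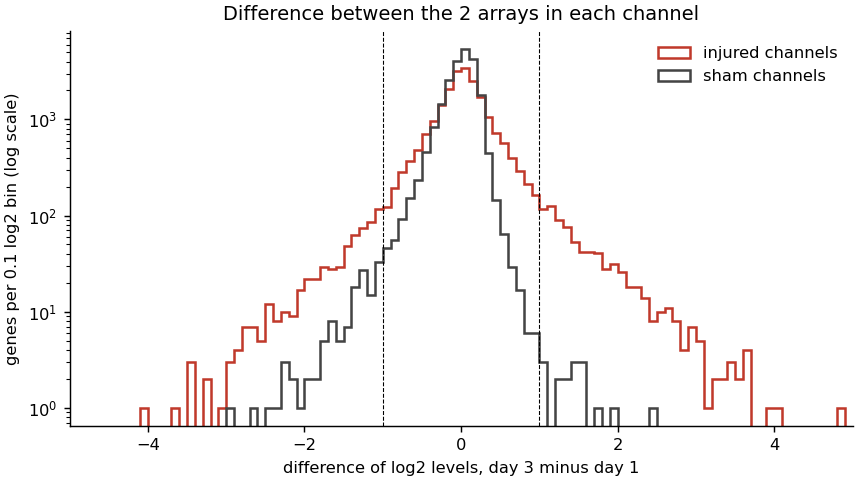
Histogram of the difference in log2 level between days (day 3 minus day 1, in bins of 0.1, gene count on a log scale) for the injured channels (red) and the sham channels (grey); dashed lines mark 2-fold. The injured channels spread to both sides (SD 0.52), the sham channels less (SD 0.24), with a longer tail of genes lower on day 3.

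Where the called genes stood against sham differed between the directions. Each set was chosen by its difference of ratios, so the direction of its shift between days follows from that choice. Low day 1 ratios in the higher set, and high ones in the lower set, are favoured by the choice too. The 620 higher genes had a median ratio of -0.44 on day 1 and 1.07 on day 3. On day 1, 148 of them were at least 2-fold below sham, 469 within 2-fold and 3 above it; on day 3 the numbers were 20, 254 and 346. The 329 lower genes went from a median of 0.98 to -0.48: 159 were at least 2-fold above sham on day 1, and 2 on day 3. Between the 2 days 26 genes passed from at least 2-fold below sham to at least 2-fold above, and 15 passed the other way.

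Promoter sequences of a pair of gene sets are shown because their genes moved together and their known regulators bind short motifs close to the start of transcription. The windows are the 250 bases before each gene's start in RefSeq's rat assembly GRCr8. The first set is that of the mitotic genes called higher on day 3, which in mammals often carry a CCAAT box and a CHR element, the site of the DREAM and MuvB complexes. Capitals mark CHR letters (TTTGAA or TTCGAA, either strand) and CCAAT letters (either strand); where the 2 overlap they form a single run of capitals. Shown are the 4 highest such genes with both motifs.
Cdkn3: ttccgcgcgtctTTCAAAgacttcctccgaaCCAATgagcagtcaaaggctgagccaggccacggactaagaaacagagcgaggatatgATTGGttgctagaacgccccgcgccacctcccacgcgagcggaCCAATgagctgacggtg
Mki67: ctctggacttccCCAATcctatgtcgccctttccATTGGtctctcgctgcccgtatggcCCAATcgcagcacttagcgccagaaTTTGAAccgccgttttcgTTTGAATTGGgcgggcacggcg
Ect2: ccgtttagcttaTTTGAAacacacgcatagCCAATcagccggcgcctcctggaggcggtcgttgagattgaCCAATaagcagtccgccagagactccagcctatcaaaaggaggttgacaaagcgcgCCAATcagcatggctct
Spag5: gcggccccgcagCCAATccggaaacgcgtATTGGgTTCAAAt
They lie at chr15:22502225-22502373 on the plus strand (Cdkn3), chr1:199952671-199952794 on the minus strand (Mki67), chr2:111966650-111966793 on the minus strand (Ect2) and chr10:63696794-63696835 on the plus strand (Spag5). CCAAT letters were present in 14 of the 16 called cell division genes with a promoter window, and CHR letters in 11 of 16; over the whole list the counts were 31 of 48 (64.6%) and 18 of 48 (37.5%). Of all 27457 promoter windows 34.3% held CCAAT letters and 17.3% CHR letters.

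The second set is that of the interferon-induced genes called lower on day 3. Known regulators of such genes, the interferon regulatory factors, bind the interferon-stimulated response element, whose core was searched as GAAANNGAA on either strand, marked in capitals. Shown are the 5 genes with the lowest differences among those with the core.
Rsad2: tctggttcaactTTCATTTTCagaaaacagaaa
Ifit3: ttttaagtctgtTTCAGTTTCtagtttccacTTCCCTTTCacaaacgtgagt
Oas1a: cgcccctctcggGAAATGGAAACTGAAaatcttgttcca
Isg20: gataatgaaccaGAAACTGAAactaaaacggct
Irf7: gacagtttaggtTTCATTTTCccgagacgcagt
They lie at chr6:48788246-48788278 (Rsad2, minus), chr1:241527271-241527322 (Ifit3, plus), chr12:41330413-41330451 (Oas1a, plus), chr1:142239955-142239987 (Isg20, plus) and chr1:205800071-205800103 (Irf7, minus). The core was present in 6 of the 7 called interferon genes with a window, in 16 of all 22 interferon genes with a window, and in 7.99% of all windows. A match of letters is a description of the window and not a measured binding site. Of the other lists searched, NF-kB letters were in 6 of 15 windows of the Toll-like receptor and NF-kB feedback list (1 of its 5 called genes) against 3.52% of all windows. MEF2 letters were in 2 of 11 fast fibre windows and 3 of 18 windows of the scaffold and coupling list, against 3.07% of all, and E2F letters (TTTCCCGC, TTTCGCGC, TTTGCCGC or TTTGGCGC, either strand) in 9 of 48 cell division windows (2 of the 16 called), against 1.81%.

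Adult fast fibre genes, already far below sham on day 1, were lower again on day 3. All 12 measured genes of the list had a difference below 0 (median -1.12), and 7 were called lower. Their median ratio to sham went from -3.03 to -4.27. Actn3, the alpha-actinin of fast fibre Z-discs, had an injured level of 12.75 (log2) on day 1 and 10.78 on day 3, with sham at 15.84 and 16.01. Its injured level was thus 3.92-fold lower on day 3, and the ratio went from -3.09 to -5.23. Myoz1, a Z-disc calcineurin binder, differed by -2.07, and Pvalb, the calcium buffer parvalbumin, by -1.88. The fast troponin C Tnnc2 differed by -1.46, with a saturated sham spot on both days, and its injured level was 3.26-fold lower. The myosin Myh2 was 2.71-fold lower. The myosin of the fastest fibres, Myh4, was within 2-fold (-0.74, injured levels 12.80 and 11.97).

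Most slow fibre genes were also below sham on both days; the exceptions were Atp2a2, a calcium pump (-0.07 and -0.01), and Tpm3, a tropomyosin (0.82 and 0.20). Of 12 genes only Csrp3, the stretch-sensing muscle LIM protein, was called (-1.19), and the median was -0.22. The slow troponin Tnnc1 had a ratio of -4.98 on day 3, 0.02 above that of day 1, and the slow myosin Myh7 had ratios of -4.09 and -4.24 with sham saturated on both days. Whether the fast and slow lists differ from each other was not tested. Genes of the sarcomere scaffold and of excitation-contraction coupling had a median of -0.14, with 2 of 23 lower, the calcium channel subunit Cacna1s (-1.25) and triadin, Trdn (-1.33), by their brightest probes; another probe of each was at -0.04 and -0.21. In this list 1 gene was called higher: Cav3, caveolin 3 of the fibre membrane, whose injured level went from 8.21 to 10.44 (4.70-fold) with sham at 11.05 and 11.41. The other probe of Cav3 was at 0.69. Desmin, Des, and the sarcoglycan Sgca were at 0.92 and 1.18 by the ratio but 0.84 and 0.93 by the injured channel.

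Muscle energy genes were lower in part. Ckm, cytosolic creatine kinase, had injured levels of 13.06 and 12.05 and sham levels of 16.29 and 16.33, a ratio 2.08-fold lower on day 3. Ampd1, muscle AMP deaminase, was 2.94-fold lower by its brightest probe, the other being at 0.00. These were the 2 called of 16 genes for creatine, purine and oxygen handling (median -0.53). Skeletal actin, Acta1, was within 2-fold (-0.40), with sham levels of 15.30 and 15.53. High sham levels of Ckm, Acta1 and Myh4 on both arrays were those of a skeletal muscle. The sham channel was also bright for some macrophage-list genes, such as Spp1 (14.88 and 15.46) and Lgals3 (13.75 and 13.62). It was dim for others, such as Mertk (6.66 and 6.44). The cause was not tested, so a ratio to sham is not a ratio to muscle known to be free of such signals. No gene was called among 25 of glycolysis and glycogen (median -0.10), 37 of oxidative phosphorylation (-0.11) or 22 of the tricarboxylic acid cycle (0.07). The ubiquitin ligase of muscle wasting, Trim63, was 2.60-fold lower (probes from -1.38 to -0.38), the only gene called among 17 of atrophy and autophagy.

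Of 17 satellite cell and myogenic genes 6 were called higher on day 3 and none lower (median 0.65), and 15 differed above 0. Myod1, which commits satellite cells to the muscle lineage, had injured levels of 10.76 and 12.47 and sham levels of 10.93 and 10.52. Its ratio thus went from -0.18 to 1.95, and the injured level was 3.28-fold higher. Myog, the differentiation factor that follows it, went from 9.69 to 11.66 in the injured channel with sham at 13.43 and 13.11, and so was 4.90-fold higher by the ratio but still below sham on day 3 (-1.45). Vcam1, an adhesion molecule of satellite cells that activated endothelium also carries, was 6.83-fold higher and passed from -1.05 to 1.73 against sham. Itga7, the laminin-binding integrin of muscle, was 5.97-fold higher (injured 11.85 to 14.35), Igfbp5 5.29-fold higher by its brighter probe (0.30 by the other) and Cdh15, M-cadherin, was at 1.19. The other factors Myf5 (0.26), Pax3 (0.05) and Myf6 (-0.82) were within 2-fold.

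Of 14 genes of embryonic and regenerating muscle 5 were called higher and 1 lower (median 0.58). All 5 were at least 2-fold below sham on day 1 and within 2-fold of it on day 3. Tnnt2, the cardiac troponin T of embryonic muscle, had injured levels of 6.91 and 9.69 and sham levels of 9.02 and 8.83. Myh3, embryonic myosin, went from 7.26 to 10.22 with sham at 10.34 and 10.46, a 7.15-fold higher ratio (probes from 1.53 to 2.84). Chrng, the fetal subunit of the acetylcholine receptor, was 5.08-fold higher and the receptor's alpha subunit Chrna1 2.64-fold. Ankrd1, a stretch-induced ankyrin of the sarcomere, was 3.29-fold higher. The gene called lower was Mustn1 (-1.35). On day 7 all 5 higher genes were at least 2-fold above sham, with Myh3 at 5.08.

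Of 63 genes of cell division and DNA replication 22 were called higher on day 3 and none lower, and 58 differed above 0 (median 0.78). All 22 were within 2-fold of sham on day 1 and at least 2-fold above it on day 3, with a median of 1.60. Cdkn3, a phosphatase of cyclin-dependent kinases, had injured levels of 8.96 and 11.63 against sham at 9.24 and 9.62. It was 6.35-fold higher by the injured channel and 4.88-fold by the ratio. The proliferation antigen Mki67 went from 7.92 to 10.17 in the injured channel and from -0.09 to 1.82 against sham. Plk1, the polo kinase of mitosis, was at 1.99, the microtubule regulator Stmn1 at 1.94, the cytokinesis kinesin Kif20a at 1.92, cyclin B1, Ccnb1, at 1.83 and the topoisomerase Top2a at 1.38.

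The genes within 2-fold in this list included replication factors. The helicase subunits Mcm2 and Mcm6 were at 0.26 and 0.14, and Pcna, the sliding clamp of DNA polymerase, at -0.04 with injured levels of 11.05 and 10.76. Cyclin D1, Ccnd1, differed by 0.26 from day 1 and was at 1.77 against sham on day 3. Mcm2, Mcm6 and Ccnd1 were chosen after their values were seen. Kif22, a kinesin, was at 1.15 by the ratio, but its injured level was lower on day 3 (8.45 and 7.97) beside a sham level lower still (8.57 and 6.94). On day 7 and day 14 none of the 22 higher genes was 2-fold above sham, with medians of -0.43 and -0.70.

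**Figure D3:**
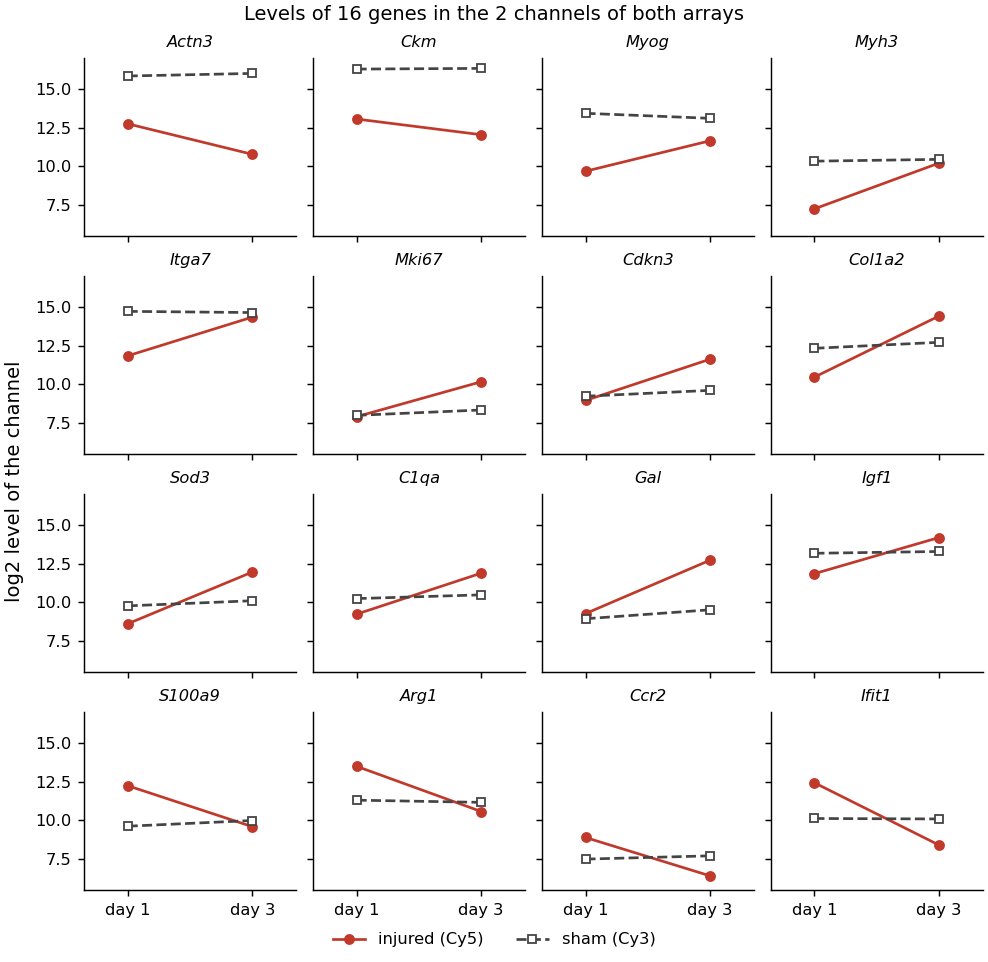
Log2 levels of 16 genes in the injured channel (red circles, solid) and the sham channel (grey squares, dashed) of the day 1 and day 3 arrays, 1 array per day, with no error bars because there are no replicates. Sham levels lie nearly flat; Myog and Itga7 climb toward sham, Mki67, Cdkn3 and Gal climb away from it, Col1a2, Sod3, C1qa and Igf1 pass from below to above it, and S100a9, Arg1, Ccr2 and Ifit1 fall to or below it.

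By the ratio Col1a1, Col3a1 and Col1a2 headed the called genes with a symbol. By the injured channel Col1a1 (3.08) lay below RT1-Bb (3.69), Mfap5 (3.66) and Cst6 (3.62). Of 41 matrix genes 20 were called higher and 1 lower (median 1.13), and 36 differed above 0. Col1a2, a chain of type I collagen, had injured levels of 10.47 and 14.42 and sham levels of 12.33 and 12.72, so that it was 15.4-fold higher in the injured channel. Its partner chain Col1a1 went from 11.89 to 14.97, 8.46-fold higher. Its ratio differed 20.3-fold, with the sham level lower on day 3 (14.43 and 13.17), and its probes ranged from 2.35 to 4.34. Col3a1, of type III collagen, was at least 11.6-fold higher in the injured channel, from 11.75 to 15.28, with a saturated spot on day 3. All 3 passed from at least 2-fold below sham to at least 2-fold above it. Col16a1, a fibril-associated collagen, was 7.85-fold higher (other probes down to 0.79).

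Mfap5, a microfibril glycoprotein, went from 10.47 to 14.13 with sham at 12.10 and 12.34, a 10.7-fold higher ratio. Fibrillin 1, Fbn1, was 6.44-fold higher, the cross-linking enzyme Loxl1 4.94-fold, Sparc, a collagen-binding glycoprotein, 3.86-fold and the collagen chaperone Serpinh1 2.70-fold. Pdgfra, the receptor that marks the fibroblast precursors of muscle, was 4.05-fold higher, with injured levels of 10.47 and 12.39. Biglycan, Bgn, was at 2.33 by the ratio but 0.77 by the injured channel, its sham channel having differed by -1.56. Not every matrix gene moved this way. Versican, Vcan, a proteoglycan of provisional matrix, was 2.73-fold lower, from a ratio of 1.97 to 0.51. Fibronectin, Fn1, was above sham on both days (1.58 and 1.09, injured spot saturated on day 1), and the matricellular proteins Postn (0.57) and Tnc (-0.49) were within 2-fold.

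Other genes near the top of the ranking included secreted proteins. Cst6, an inhibitor of cysteine proteases, went from 6.81 to 10.42 in the injured channel with sham at 7.32 and 7.66, and Sfrp2, a secreted Wnt modulator, from 7.62 to 10.62 with sham at 8.16 and 8.08. Sod3, the extracellular superoxide dismutase, was 8.06-fold higher and Srpx, a sushi-repeat protein, 7.75-fold. C1qtnf6, of the family of C1q and tumour necrosis factor related proteins, was 7.56-fold higher and Sned1 8.05-fold, but other probes of these 2 were at 0.11 and 0.12. The class II histocompatibility gene RT1-Bb was 11.8-fold higher by its brighter probe and at -0.07 by the other, and Arpp21 was 7.61-fold and 0.29, so these values rest on a single probe each.

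Matrix proteases split. Of 25 proteases and inhibitors 6 were called higher and 2 lower (median -0.07). Mmp14, the membrane protease that activates Mmp2, went from 9.20 to 11.96 with sham at 10.90 and 10.93, and from below sham to above it (-1.70 and 1.03). Mmp23 was 4.84-fold higher, the collagen-degrading cathepsin Ctsk 4.17-fold, the procollagen protease Adamts2 2.83-fold (other probes down to 0.07) and Mmp2 2.59-fold. The stromelysin Mmp3 was 5.59-fold lower, from an injured level of 10.48 to 8.03, and Adam8, a protease of leukocytes, 2.28-fold lower by its brightest probe, another being at 0.45. The inhibitor Timp1 was within 2-fold (-0.42).

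Growth factors and nerve-related genes were higher in part. Of 34 growth factor genes 9 were called higher and none lower (median 0.22). Igf1, the insulin-like growth factor of muscle repair, had injured levels of 11.86 and 14.19 and sham levels of 13.18 and 13.29, a 4.65-fold higher ratio by its brightest probe. Its 4 probes ranged from 0.00 to 2.22. Of its binding proteins Igfbp4 (1.86), Igfbp6 (1.38) and Igfbp3 (1.18) were also called, beside Igfbp5. Tgfb1 was within 2-fold (-0.44). In the nerve list 4 of 15 genes were called higher with a median of -0.03, so that 11 of its genes were not called. Gal, the neuropeptide galanin of injured neurons, went from 9.28 to 12.73 with sham at 8.95 and 9.53, 10.9-fold higher in the injured channel and 7.32-fold by the ratio. Gdnf, a survival factor for motor neurons, was 4.01-fold higher, and Nes, the intermediate filament nestin of satellite cells, muscle precursors and glia, was 5.18-fold higher.

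Of 21 neutrophil genes 10 were called lower on day 3 and none higher (median -0.98), and 20 differed below 0. The list's median ratio to sham went from 0.85 to -0.20. Itgam, an integrin that macrophages share, was above sham on both days (2.75 and 2.02), and Hdc, histidine decarboxylase, below it on both (-0.97 and -1.30). The list's summed injured brightness was 24200 on day 1 and 7500 on day 3, in normalized units. S100a9 and S100a8, calcium-binding partners abundant in neutrophils, had injured levels of 12.24 and 9.60, and of 12.45 and 9.93. The sham levels of S100a8 were 9.94 and 10.14, and the sham channel of S100a9 differed by 0.37. Thus S100a9 went from a ratio of 2.62 to -0.40, and S100a8 likewise from above sham to just below it. The probes of S100a8 ranged from -2.70 to -1.17. The decoy interleukin 1 receptor Il1r2 was 4.77-fold lower, the C-type lectin Clec4d 4.02-fold, and Padi4, the enzyme that modifies histones in neutrophil traps, was at -1.73. The granule peptide Camp was among the genes called lower, but other granule genes were within 2-fold. Lcn2 was at -0.16, Mpo at -0.04 and Prtn3 at 0.08. Mpo's sham spots were not well above background on either day, and Prtn3's was not on day 3. The injured levels of Mpo (6.25 and 6.19) lay close to the lowest levels of probes well above background (5.86 and 5.77). A change in Mpo could therefore have been missed.

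Monocyte and macrophage genes moved in both directions. Of 31 measured 11 were called lower and 4 higher (median -0.73), and 22 differed below 0. The summed injured brightness, 268000 and 247000, holds saturated spots of Spp1, Lgals3, Lyz2 and Tyrobp on day 1 and of Lgals3 and Apoe on day 3, and so is not comparable between days. Ccr2, the receptor that brings inflammatory monocytes into tissue, had injured levels of 8.90 and 6.42 with sham at 7.50 and 7.71. Ly6c, of the Ly6 family that marks such monocytes in rodents, was 5.09-fold lower. Msr1, a scavenger receptor, went from 10.89 to 8.02 with sham at 9.48 and 9.58, and Arg1, the arginase of activated macrophages, from 13.50 to 10.58 with sham at 11.31 and 11.17. Fc receptors Fcgr1a (-1.58) and Fcgr2b (-1.72), the lipopolysaccharide co-receptor Cd14 (-1.20) and the haemoglobin scavenger receptor Cd163 (-1.43) were lower too. The 4 higher genes were C1qa and C1qb, which macrophages make, Apoe, a lipid carrier, and Trem2, a lipid-sensing receptor of phagocytes. C1qa had injured levels of 9.24 and 11.89 and sham levels of 10.25 and 10.49, and Trem2 was 4.03-fold higher. Apoe was at least 3.12-fold higher in the injured channel, being saturated on day 3. The general macrophage marker Cd68 was level (ratios of 0.59 and 0.57), and so was Gpnmb (0.71 and 1.09). Spp1, with its injured spot saturated on day 1, was within 2-fold (-0.60, ratios of 0.08 and -0.52).

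Of 35 cytokine and chemokine genes 12 were called lower, 4 higher and 19 neither (median -0.42). Ccl12, a monocyte attractant of rodents, went from 12.32 to 9.60 with sham at 10.26 and 10.42, Il1b, interleukin 1 beta, from 11.73 to 9.48 with sham at 10.19 and 10.36. Ccl2 was at least 2.44-fold lower in the injured channel, its spot being saturated on day 1, and its sham level was 0.92 higher on day 3 on the log2 scale. Ccl6 was 4.27-fold lower and Cxcl10, the interferon-induced T cell attractant, 3.67-fold. The neutrophil attractants Cxcl1, Cxcl2 and Cxcl3 were at -1.39, -1.59 and -1.84, and Il6 was within 2-fold (-0.63). The receptor Ccr1 was 5.82-fold lower. Those higher were Cxcl14 (5.43-fold, from -1.32 to 1.12 against sham), Cxcl12, which holds stem cells in their niche (2.46-fold, its other probe at 3.83), and the lymphocyte attractants Ccl5 (2.21-fold) and Cxcl13 (2.07-fold).

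Interferon-induced genes included the lowest difference of all genes, that of Ifit1. Of 31 measured 12 were called lower and none higher (median -0.70), and 26 differed below 0. Ifit1, a sensor of foreign RNA ends, had injured levels of 12.43 and 8.41 and sham levels of 10.13 and 10.10, so that it was 15.9-fold lower by the ratio and passed from 2.31 to -1.69 against sham. Isg15, a ubiquitin-like modifier, went from 12.53 to 10.04 with sham at 11.10 and 11.14. Rsad2, viperin, was 4.55-fold lower (other probe -0.41), Ifit2 4.46-fold and the transcription factor Irf7 2.56-fold. Ifit3 was not well above background in the injured channel on day 3 and was at least 5.36-fold lower there. On day 7 all 12 were at least 2-fold above sham, with a median of 2.90, and on day 14 10 of 12. Isg15 stood at 3.68 on day 7 and Irf7 at 3.11. Ifitm1 was at 1.17 by the ratio and 0.65 by the injured channel.

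Of 16 genes of Toll-like receptors and NF-kB feedback 5 were called lower and none higher (median -0.24): Tlr2, the receptor for bacterial lipoproteins (injured 12.76 and 11.29), Tlr4, Tlr6, Tlr7 and their adaptor Myd88. The receptors Tlr3 (0.93) and Tlr9 (0.11) differed above 0. Of the neutrophil markers 10 of 21, and of the monocyte markers 11 of 31, were lower on the same array as these receptors, chemokines and interferon genes. Their part in those differences was not tested.

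Complement genes divided by role. Of 19 measured 9 were called higher and 5 lower (median 0.96). Of the C1 complex, which starts the classical pathway, 4 of 5 genes were called higher: C1s had injured levels of 8.54 and 11.94 with sham at 10.10 and 10.43, C1r was 4.39-fold higher, C1qa 5.30-fold and C1qb 4.28-fold, and C1qc was at 0.96. The C1 inhibitor Serping1 was 3.66-fold higher (other probe 0.25), and factor D, Cfd, factor B, Cfb, C6 and C4a were between 1.13 and 1.38. Among the lower were the anaphylatoxin receptors of leukocytes C5ar1 (-1.52) and C3ar1 (-1.33), C3 itself (-1.46) and properdin, Cfp (-1.12). The 9 higher genes were all at least 2-fold above sham on days 7 and 14.

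**Figure D4:**
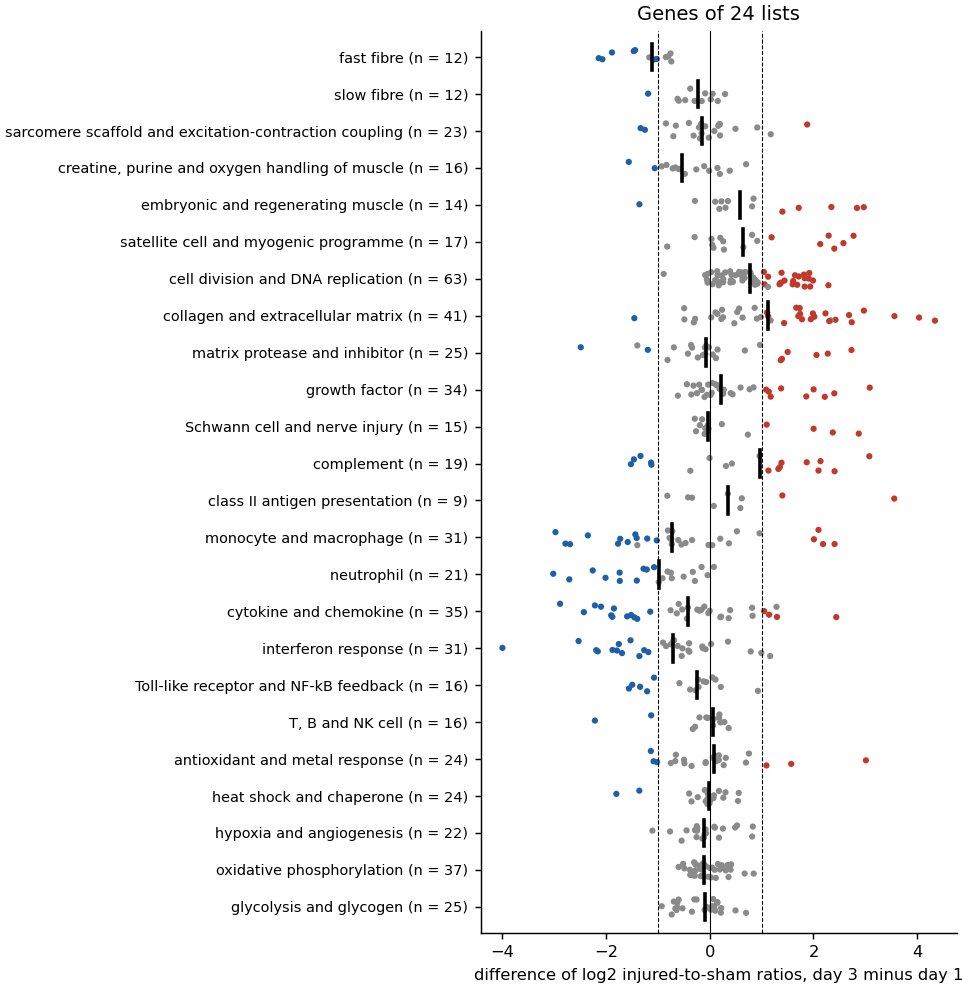
Difference of log2 injured-to-sham ratios (day 3 minus day 1) for each measured gene of 24 lists, with the median as a black bar; red and blue points are called higher and lower by both measures, and dashed lines mark 2-fold. Fast fibre, neutrophil and interferon genes lie mostly left of 0 (medians -1.12, -0.98 and -0.70), cell division and matrix genes mostly right of it (0.78 and 1.13), and complement and monocyte genes on both sides.

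Of other genes at the low end of the ranking several are known from leukocytes. Slpi, an inhibitor of neutrophil elastase, went from 14.66 to 11.61 in the injured channel with sham at 13.40 and 13.75, a difference of ratios of -3.40 by the brighter of its probes and -3.15 by the other. Srgn, the proteoglycan serglycin of leukocyte granules, was 6.75-fold lower, the serpin Serpinb10 6.35-fold, the cell adhesion molecule Ceacam4 5.80-fold and Fcnb, a ficolin of monocytes and granulocytes, 5.62-fold. Prmt2, an arginine methyltransferase, was at -2.49 by its brightest probe and -0.13 by another. Cd8a, the T cell co-receptor that rat macrophages can also carry, was 4.63-fold lower and Cd8b 2.18-fold, and the other 14 of 16 lymphocyte genes were not called (median of the list 0.06).

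Of 24 antioxidant and metal response genes 3 were called higher (Sod3, and the metallothioneins Mt3 and, by 1 of its 2 probes, Mt1, the other being at 0.09) and 3 lower. Hmox1, heme oxygenase 1, was 2.19-fold lower, with injured levels of 12.85 and 11.35, Prdx1, a peroxiredoxin, 2.11-fold and Fth1, ferritin heavy chain, 2.02-fold. The list's median was 0.08, and -0.11 with median centring, so it has no settled direction. Of 24 heat shock genes the small chaperone of muscle Cryab (-1.80, sham saturated on both days) and the inducible Hspa1a (-1.35, other probe -0.59) were lower. No gene was called among 20 of endoplasmic reticulum stress (median -0.30), 22 of hypoxia and angiogenesis (-0.10) or 31 of apoptosis (-0.10). Among 23 immediate early genes Egr1 (2.62-fold) and Jund (2.39-fold, another probe at 0.20) were higher and the antiproliferative Btg2 lower (2.28-fold), with Fos at -0.31 and Atf3 at -0.18.

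Of 19 endothelial genes only Vcam1 was called (median 0.02), with Cdh5 at 0.10 and Kdr at -0.24. Of 11 pericyte and smooth muscle genes Smtn, Rgs5 and Tagln were called higher, Tagln at 1.14, Rgs5 at 1.25 and Smtn with its other probe at 0.02. In the fat cell list 3 of 11 were called higher, the fatty acid carrier Fabp4 (1.92), Retn and Cfd, whereas Adipoq was at 0.62 and Pparg at -0.12. Of the 14 skin epithelium genes 4 were measured, none of them called. Of 10 red cell and platelet genes Pf4, a platelet chemokine, was called lower (-1.51), and its sham channel differed by -1.34.

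The remaining lists gave few calls. In class II antigen presentation 2 of 9 genes were higher by their brightest probes (RT1-Bb, and RT1-Db1, with another probe at -0.13), and at the nerve-muscle junction 2 of 11, the receptor subunits Chrna1 and Chrng. Single genes were higher in fibrinolysis (Serpine2, other probe at 0.18), fatty acid handling (Fabp4) and lipid synthesis (Scd2, another probe at 0.23), and lower among mast cell genes (Cma1) and the proteasome (Psmb8). None of 21 genes of ribosome biogenesis was called.

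The series was named for the targets of microRNA-21. A microRNA pairs with its target through its seed, bases 2 to 8. The seed is in capitals here in the mature rat sequence from RefSeq (GRCr8), shown because the next list holds published targets of this microRNA. Seed matches in the genes of that list were not searched for.
rno-miR-21-5p: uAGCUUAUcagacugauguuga
The microRNA itself was not measured. Of 25 measured genes published as its targets 3 were called higher and 2 lower, against 2.78% and 1.48% of all genes, and the list's median was 0.06. Pdcd4, a translation inhibitor, had ratios of -0.27 and -0.51 and Timp3 of -0.16 and -0.10. The growth factor antagonist Spry1 was at 0.34 and Reck, an inhibitor of matrix proteases, at 0.97 by the ratio and 1.16 by the injured channel. The 3 higher were the nuclear factors Nfia (3.15-fold) and Nfib (3.11-fold), each with another probe near 0 (0.25 and 0.18), and Igfbp3. The 2 lower were Tgfbi (-1.31, other probe -0.51) and Btg2.

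Some genes were bright in the injured channel on a single day. There were 79 genes well above background in it on day 3 but not day 1, and 22 on day 1 but not day 3. Among the former with a symbol the brightest were Sfrp1, another secreted Wnt modulator (at least 2.57-fold higher on day 3), the matrix protein Spon1 (at least 2.86-fold) and Rhpn2 (at least 2.28-fold). Among the latter Ifit3 was followed by Aqp4, a water channel of fast fibres (at least 1.43-fold lower), and the other 5 with a symbol were at least 1.05-fold to 1.25-fold lower.

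The direct comparison of the injured channels added genes that the ratio did not hold. By the injured channel alone a further 171 genes passed 2-fold upward and 281 downward. Having missed 2-fold by the ratio, such genes tend to have a sham shift by their selection. The 171 had a median sham difference of 0.21 and a median ratio difference of 0.89, and the 281 had -0.62 and -0.61. In Id1, a target of bone morphogenetic proteins whose sham spot was not well above background on day 3, the injured channel differed by -2.75 and the sham channel by -2.22. Srp14, a subunit of the signal recognition particle, differed by -1.87 and -1.69.

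On the later arrays the 2 called sets kept apart in different ways. The 620 genes higher on day 3 had median ratios of 0.73 on day 7 and 0.60 on day 14, with 233 of 617 and 196 of 616 at least 2-fold above sham. The 329 lower genes had medians of -0.11 and -0.30, with 41 of 326 and 40 of 329 at least 2-fold above sham. The medians of all genes on those days were 0.04 and 0.04. The 20 matrix genes called higher had a median of 1.90 on day 7 and 1.67 on day 14, where the cell division genes called higher had medians below 0. The 7 fast fibre genes called lower stood at a median of -0.08 on day 7, and 5 of them were at least 2-fold above sham on day 14.

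**Figure D5:**
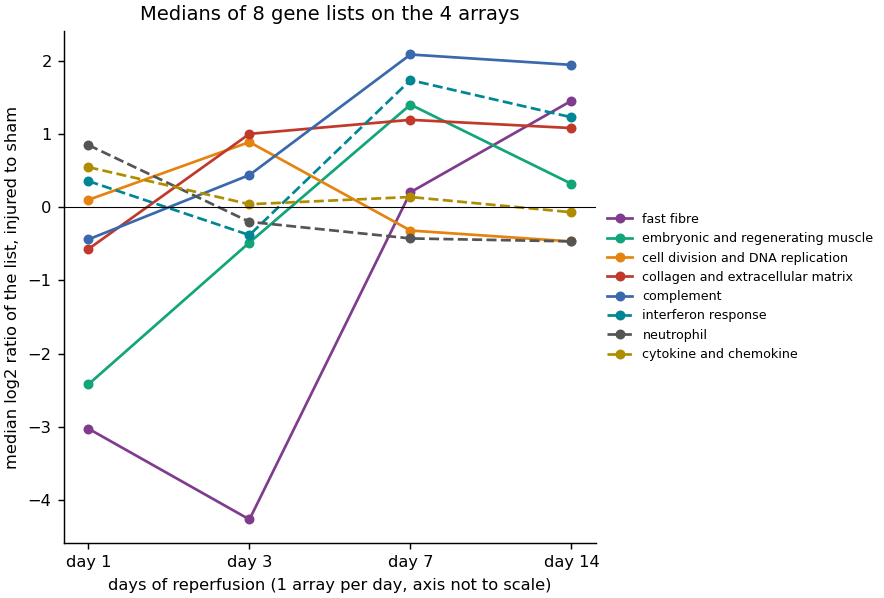
Median log2 ratio of injured to sham for the measured genes of 8 lists on the arrays of days 1, 3, 7 and 14 (1 array per day, days evenly spaced). The cell division median is highest on day 3 (0.89), the interferon median is lowest on day 3 (-0.38), the fast fibre median is lowest on day 3 (-4.27), and matrix and complement stay above 0 from day 3 on.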

How the data were processed

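The arrays were analysed from the scanner software's output. Per the file headers, images were extracted with Agilent Feature Extraction 10.5.1.1, and per the submitters' processing notes with version 9.5.3. Used here were the deposited intensities of each spot in both channels (mean brightness, and median brightness of the surrounding background), before any normalization. As an alternative served the deposited LogRatio, which per the file headers is log10 of red over green with background subtracted and dyes normalized by the software. The deposited value table holds log2 ratios that differed from LogRatio by at most 0.005 on each array, with medians of 0, so scale, centring and direction were settled.

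With R 4.3.3 and limma 3.58.1, intensities were corrected by normexp (offset 50) and normalized by loess within arrays, control and outlier spots having no weight. Spots of a probe were averaged and the brightest probe stood for its gene. After loess, mean brightness was quantile normalized between arrays (Aquantile) to give each channel's level. A gene was called if both the difference of ratios and the injured channel differed at least 2-fold. Where a spot was saturated, or dim on 1 day (then taken at its own level or, if higher, the lowest level of probes well above background), the fold is written as at least N-fold.

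Of 41012 probes, 25796 passed the filter. A table of rat genes (GRCr8) named 11136 probes by accession, 1599 by symbol, 445 by older symbol, 6508 by the symbol of a predicted gene and 121 through the description; 21203 kept the file's name. Injured channels were well above background at 64.4% and 68.7% of probes on days 1 and 3, sham channels at 47.3% and 41.1%; the number of arrays limits precision.

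The comparison, the 42 gene lists and the 38 genes given whatever their value were chosen with earlier results of these data known. Of the 38, Hspa1b was not measured and has no value. Named beside them are the 15 highest and 15 lowest called genes with a symbol, up to 4 called genes per list and direction, and genes whose sham channels differed most. Further genes named in the text were picked with their values known. Normalization and the difference of ratios were also tested on simulated arrays.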

Additional observations from a re-analysis of the deposited data

Results flagged for a closer look

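A total of 21 named genes stood at least 2-fold on opposite sides of sham on the 2 days, with 1 sample per day, so that the difference between days was not tested for any of them. Those that passed from below to above sham, with the difference of log2 ratios, were Col1a1 (4.34), Col3a1 (4.03, saturated on day 3), Col1a2 (3.56), Mfap5 (3.42), C1s (3.08), Sod3 (3.01), Col16a1 (2.97), Srpx (2.95), Vcam1 (2.77), Mmp14 (2.73), Cxcl14 (2.44), C1qa (2.41) and Nes (2.37). Those that passed from above to below sham were Ifit1 (-3.99), Slpi (-3.40), Msr1 (-2.97), Ccr2 (-2.69), Serpinb10 (-2.67), Ccr1 (-2.54), Isg15 (-2.53) and Il1r2 (-2.25). Cxcl14 was below sham again on days 7 and 14 (-1.31 and -1.24), and Isg15 was above it (3.68 and 2.54).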

How the results depend on the processing

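Against 689 genes higher and 368 lower, the deposited LogRatio gave 1943 and 1211, among them 688 and 367 of the same genes. The lower count was 610 by the injured channels alone and 721 with median centring. It was 600 when the injured channels were compared after quantile normalization without loess. The 610 and the 600 are thus both direct comparisons of the injured channels. The cause of the higher counts was not tested. The other alternatives (offset of 16, both channels above background, no filter, mean over probes, no saturated probes) gave 614 to 910 higher and 348 to 490 lower. All 128 named genes past 2-fold kept their direction under every alternative that gave them a value, except Kif22, at -0.48 and -0.61 by the injured channels alone and without loess. Most of these genes were named because they passed 2-fold by both measures, so their direction by the injured channels follows from that choice. Genes named for a large difference are also apt to keep their sign. With the mean over probes 110 of 128 stayed past 2-fold. The antioxidant list's median was -0.11 with median centring.

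No paired analysis was possible because each day has 1 sample. For the same reason no array was left out. Spots near background limit the folds of dim genes, which the offset draws toward 0. Of 147 genes called higher with more than 1 probe, every probe passed 2-fold in 42 and had the same direction in 133; of 51 called lower, in 23 and 48.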
